A study of Mus musculus with 24 samples.

Results

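The genes described here are those of the enzymes that write and remove DNA methylation in the mouse oocyte, with a recruiting factor and its inhibitor. They are the methyltransferase genes Dnmt1, Dnmt3a and Dnmt3b, the methyltransferase cofactor gene Dnmt3l, Uhrf1, Dppa3, the dioxygenase genes Tet1, Tet2 and Tet3, and the glycosylase gene Tdg. They were chosen by name, and each of the 10 was found once among the 16572 gene names of the deposited RNA-seq table. The RNA came from oocytes of class IV, the class of largest diameter, isolated at day 7 after birth from mice labelled C57BL/6 Barb, for which the study's methods also name an SV129 background, and grown outside the follicle on gelatine-coated plates. Theca-like cells of the ovary were present at the start of the cultures, and RNA was taken from pools of oocytes. The IV 5% O2 oocytes, written 5% O2 beside values, were kept under 5% oxygen for 9 days and the IV 20% O2 oocytes under 20% oxygen for 14 days. By the study's methods, the medium was also changed more often under 5% oxygen. Oxygen, time in culture and the interval of medium changes therefore cannot be told apart. Both sets are labelled with a diameter of 60 to 70 μm. The study's text gives a smaller range for IV 20% O2, so oocyte size cannot be told apart from these either. The study asked whether transcription and DNA methylation are kept in oocytes that grow in vitro. The RRBS and PBAT libraries, which measured the methylation itself, are not analysed here.

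DNMT1 copies methylation onto the new strand after replication, and UHRF1 recognises hemimethylated sites and brings DNMT1 to them. DPPA3, also called STELLA, is a maternal protein that holds UHRF1 out of the nucleus. DNMT3A and its cofactor DNMT3L, which has no catalytic activity of its own, set most new methylation in the growing oocyte, while DNMT3B is the related enzyme of the early embryo. The TET enzymes oxidise 5-methylcytosine, TET3 being the maternal form that acts in the zygote, and TDG cuts the oxidised bases out of the DNA.

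The start sites of these genes differ in their content of CpG, the dinucleotide that the enzymes methylate. RefSeq start windows were found for 9 of the 10 genes, and 4 of these have more than 1 annotated start. The deposited values cover whole genes, so transcripts from different starts, such as the oocyte form of Dnmt1, are not separated. The 250 bases before a start are printed here for Dnmt3l, the member with the largest measured difference between the cultures. They are also printed for Dnmt1 and Uhrf1, which are abundant in both. Sequences are from RefSeq on GRCm38.p6, on the strand of the gene, 5′ to 3′, with each CpG in capitals. The windows shown for Dnmt3l are chr10:78049592-78049841 and chr10:78055085-78055334, both on the plus strand in introns of the gene. Those of Dnmt1 are chr9:20959889-20960138, upstream of the whole gene, and chr9:20952980-20953229, in an intron, both on the minus strand. The window shown for Uhrf1 is chr17:56304063-56304312, on the plus strand in an intron. Windows that overlap exons were not printed, among them another of Dnmt1 with 26 CpG and one at the upstream end of Uhrf1 with 10 CpG.
Dnmt3l, middle start: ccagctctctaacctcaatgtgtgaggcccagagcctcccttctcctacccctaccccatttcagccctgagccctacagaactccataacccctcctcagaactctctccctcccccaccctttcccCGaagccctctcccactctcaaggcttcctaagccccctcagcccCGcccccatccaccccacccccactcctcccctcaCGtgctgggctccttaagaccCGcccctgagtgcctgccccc
Dnmt3l, downstream start: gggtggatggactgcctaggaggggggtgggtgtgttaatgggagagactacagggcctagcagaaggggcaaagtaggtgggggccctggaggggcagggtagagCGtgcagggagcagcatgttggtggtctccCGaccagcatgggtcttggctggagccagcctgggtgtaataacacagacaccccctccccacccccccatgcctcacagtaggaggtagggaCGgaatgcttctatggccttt
Dnmt1, most upstream start: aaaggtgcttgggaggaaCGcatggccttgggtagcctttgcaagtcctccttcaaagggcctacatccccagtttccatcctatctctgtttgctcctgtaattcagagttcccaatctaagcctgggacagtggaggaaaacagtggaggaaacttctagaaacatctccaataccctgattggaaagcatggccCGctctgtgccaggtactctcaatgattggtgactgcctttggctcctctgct
Dnmt1, second start: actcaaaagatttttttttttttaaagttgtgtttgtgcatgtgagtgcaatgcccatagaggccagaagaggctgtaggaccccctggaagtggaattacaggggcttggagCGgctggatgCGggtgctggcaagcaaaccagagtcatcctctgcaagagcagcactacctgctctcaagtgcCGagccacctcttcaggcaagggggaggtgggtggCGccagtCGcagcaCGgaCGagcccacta
Uhrf1, downstream start: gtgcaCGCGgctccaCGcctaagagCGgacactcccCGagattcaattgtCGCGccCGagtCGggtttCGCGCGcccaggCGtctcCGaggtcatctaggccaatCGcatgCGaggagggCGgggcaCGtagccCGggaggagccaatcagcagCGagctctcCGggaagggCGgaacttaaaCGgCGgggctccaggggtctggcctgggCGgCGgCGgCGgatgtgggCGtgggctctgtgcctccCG
The printed windows hold 4 and 3 CpG for Dnmt3l, 2 and 7 for Dnmt1 and 30 for Uhrf1. Of all 32851 RefSeq windows of 250 bases, 62.2% hold at least 4 CpG and 5.94% hold at least 30. The remaining annotated start of Dnmt3l, at the upstream end of the gene where it runs antisense to Aire, has 5 CpG. The other windows of the members hold 10 to 51 CpG, the most before the start of Tet2, a count that 0.0670% of all windows reach. The count of CpG is a description of the sequence, and no methylation was read here.

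The table gives 1 log2 value per gene and condition although 2 libraries per condition are labelled, so no difference given here has a spread between libraries, an SD or a p-value. The direction of each difference rests on the names of the columns as deposited. Once the log2 was undone, 99.93% of the values above 0 at 5% O2 and 99.98% at 20% O2 lay within 0.05 of a whole multiple of 1 read that was worth the same for every gene, and they were therefore treated as RPM, the reads of a gene per 1000000 reads of its column, without a correction for length. The IV 5% O2 column stands for 132185258 reads and the IV 20% O2 column for 40875358, a ratio of 3.23, of which 82.9% and 72.8% lie on the listed genes. A gene without reads could still have had up to 3, or 0.0227 RPM at 5% O2 and 0.0734 RPM at 20% O2. Intervals are 95% intervals for counting error only, and they take each read as independent. As reads were copied by PCR, the intervals can be too narrow even for that. They compare these columns rather than the conditions. In RNA from pooled oocytes, fewer cells of a type and less RNA per cell cannot be told apart. The defining oocyte markers were present, with all 11 of the listed genes in the table and a summed level of 9493 RPM at 5% O2 and 13257 RPM at 20% O2.

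Levels of different genes were compared per kilobase of annotated exon. Dppa3, Dnmt1 and Uhrf1 were the most abundant members in both cultures. Dppa3 reached 553 RPM per kb at 5% O2 and 540 RPM per kb at 20% O2. This placed it at rank 24 and rank 21 among the 14404 genes with a length and a mean of at least 1 RPM. Dnmt1 followed with 379 and 332 RPM per kb, at ranks 42 and 40. Uhrf1 had 141 RPM per kb at 5% O2 and 204 RPM per kb at 20% O2. The inhibitor gene Dppa3 was thus above both genes of the maintenance machinery per unit of length. Below them the order depended on the culture. In IV 5% O2, Dnmt3l came next with 34.2 RPM per kb, ahead of Tet3 with 29.8 RPM per kb. In IV 20% O2, Tet3 came next with 58.9 RPM per kb and Dnmt3l was at 8.59 RPM per kb. Dnmt3a lay in the middle, at 7.08 RPM per kb at 5% O2 and 6.32 RPM per kb at 20% O2. Dnmt3b and Tet2 stood close to each other, with 3.66 and 3.25 RPM per kb at 5% O2 and 1.90 and 3.03 RPM per kb at 20% O2. Tdg and Tet1 were the lowest members in both columns. The counting intervals of neighbours in this order did not overlap in either column. Dnmt3b and Tet2 changed places at 5% O2 when the longest transcript was used as the length.

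**Figure D1:**
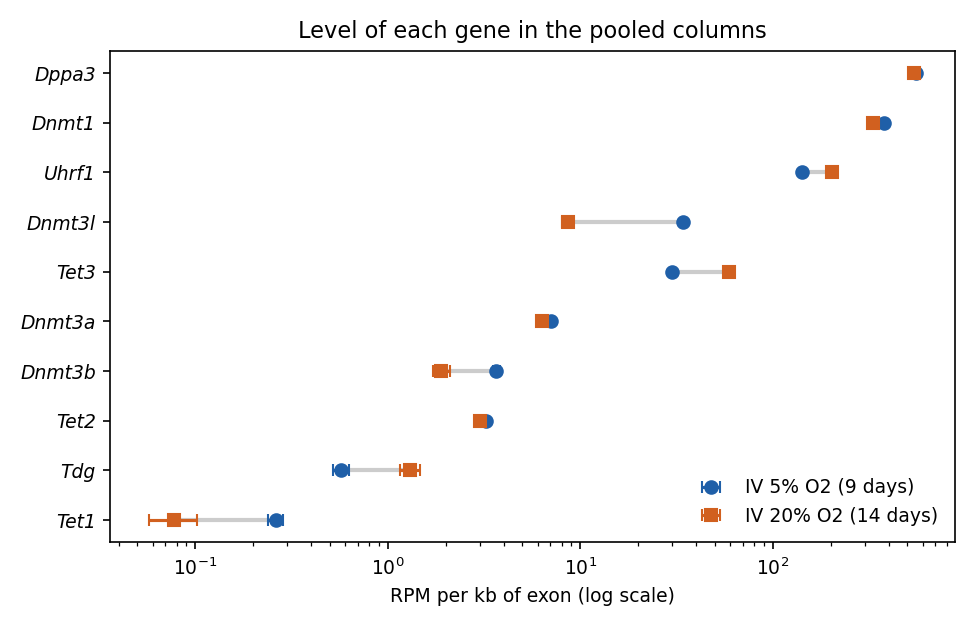
Level of each of the 10 genes in RPM per kb of exon (log axis) in the pooled IV 5% O2 column (blue circles) and the pooled IV 20% O2 column (orange squares); bars are exact 95% counting intervals. The circles and squares of Dppa3, Dnmt1, Dnmt3a and Tet2 nearly coincide, while Dnmt3l, Dnmt3b and Tet1 lie higher at 5% O2 and Tet3, Tdg and Uhrf1 higher at 20% O2.

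Among the genes of de novo methylation, the cofactor gene Dnmt3l showed the largest measured difference of all 10 members, whereas the enzyme gene Dnmt3a was nearly level. Dnmt3l (GRCm38, chromosome 10, 78041947 to 78063622) had 102 RPM at 5% O2 and 25.7 RPM at 20% O2. This is a 3.98-fold higher value at 5% O2, with an interval of 3.74 to 4.24. The wider interval of Tet1, 2.52 to 4.62 around 3.38, covers it, so the order of these genes by ratio is uncertain. On log2(RPM + 1) the difference was 1.95, and 2.90% of the 14704 genes tested had a larger one. No exonic window of 50 or 100 bases of Dnmt3l occurs elsewhere in the genome, and 67 of its 2988 exonic bases overlap Aire on the opposite strand. Dnmt3a (chromosome 12, 3806007 to 3914443) had 118 RPM at 5% O2 and 105 RPM at 20% O2, a 1.12-fold higher value (interval 1.08 to 1.16). Dnmt3b (chromosome 2, 153649450 to 153687730) had 18.7 RPM at 5% O2 from 2472 reads and 9.69 RPM at 20% O2 from 396 reads. Its ratio of 1.93 (interval 1.74 to 2.15) came to 0.88 on log2(RPM + 1), just under 2-fold.

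The balance between these genes within a column does not depend on how the columns are scaled by a single factor. Per kilobase, Dnmt3l stood at 4.83 times Dnmt3a at 5% O2 and at 1.36 times Dnmt3a at 20% O2. The ratio thus differed 3.56-fold between the cultures (Wald interval 3.31 to 3.82 on the reads). Dnmt3b was at 0.518 times Dnmt3a at 5% O2 and at 0.300 times Dnmt3a at 20% O2, a 1.72-fold difference (interval 1.54 to 1.93). Of the summed RPM per kb of the Dnmt3 genes, Dnmt3l made up 76.1% at 5% O2 and 51.1% at 20% O2, while Dnmt3a made up 15.8% and 37.6%. These ratios and shares rest on the annotated lengths, 2988 bases for Dnmt3l and 16642 bases for Dnmt3a, and in RPM without length Dnmt3a had the higher value in both columns. With the longest transcript as the length, the ratios of Dnmt3l to Dnmt3a were 4.61 and 1.30. The forms of Dnmt3a that were expressed were not separated, so the order of the pair is uncertain, while the 3.56-fold difference of the ratio does not depend on length as long as each gene's form is the same in both columns.

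Of the maintenance genes, Uhrf1 was lower at 5% O2, and Dnmt1 and Dppa3 were close to level. Uhrf1 (chromosome 17, 56303321 to 56323486) had 601 RPM at 5% O2 and 869 RPM at 20% O2, a 1.45-fold higher value at 20% O2 (interval 1.43 to 1.47). Its difference on log2(RPM + 1) was -0.53, and 18.3% of the genes tested lay lower. Of the 50-base windows of Uhrf1, 22.5% occur elsewhere in the genome, and of the 100-base windows 4.62% do. Dnmt1 (chromosome 9, 20907209 to 20959888), with 2799 RPM at 5% O2 and 2450 RPM at 20% O2, differed 1.14-fold. Dppa3 (chromosome 6, 122626410 to 122630272), with 493 RPM and 481 RPM, differed 1.02-fold (interval 1.01 to 1.04). Of the 50-base windows of Dppa3 27.9% occur elsewhere in the genome, and of its 52 windows of 100 bases 0 do. Within the columns, Uhrf1 stood per kilobase at 0.372 times Dnmt1 at 5% O2 and at 0.615 times Dnmt1 at 20% O2, a 1.65-fold difference (interval 1.63 to 1.68). Against its inhibitor gene, Uhrf1 was at 0.255 times Dppa3 at 5% O2 and at 0.378 times Dppa3 at 20% O2, a 1.48-fold difference (interval 1.45 to 1.51). The intervals of both ratios lie apart from equality, but no replicate spread stands behind them.

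The Tet genes differed in direction between the cultures. Tet3, the most abundant of them, was lower at 5% O2 and Tet1, the least abundant, was higher there. Tet3 (chromosome 6, 83362373 to 83459084) had 498 RPM at 5% O2 and 984 RPM at 20% O2. The value at 20% O2 was 1.98-fold higher (interval 1.95 to 2.00), which is -0.98 on log2(RPM + 1), and 9.39% of the genes tested lay lower. Tet2 (chromosome 3, 133463679 to 133545139) had 54.8 RPM at 5% O2 and 51.2 RPM at 20% O2, a ratio of 1.07 (interval 1.02 to 1.13). Tet1 (chromosome 10, 62804570 to 62908996) had 4.05 RPM at 5% O2 from 535 reads but 1.20 RPM at 20% O2 from 49 reads. Its ratio was 3.38 with a wide interval of 2.52 to 4.62, and its difference on log2(RPM + 1) was 1.20. Despite these differences, Tet3 made up most of the summed RPM per kb of the Tet genes in both columns, 89.5% at 5% O2 and 94.99% at 20% O2. Tet1 made up 0.786% and 0.125%. Per kilobase, Tet3 stood at 9.17 times Tet2 at 5% O2 and at 19.4 times Tet2 at 20% O2, a 2.12-fold difference (interval 2.01 to 2.23). At most 0.818% of the 50-base windows of a Tet gene occur elsewhere in the genome.

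Tdg (chromosome 10, 82629828 to 82650799) was scarce in both columns, with 3.08 RPM at 5% O2 from 407 reads and 7.05 RPM at 20% O2 from 288 reads. The ratio was 2.29-fold in favour of 20% O2 (interval 1.96 to 2.67), and the difference on log2(RPM + 1) was -0.98. The value of Tdg is uncertain, because 49.4% of its 50-base windows and 39.8% of its 100-base windows occur elsewhere in the genome, and 367 of its 5374 exonic bases overlap Glt8d2 on the opposite strand. How the authors' counting treated such reads is not given in the sources used here.

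**Figure D2:**
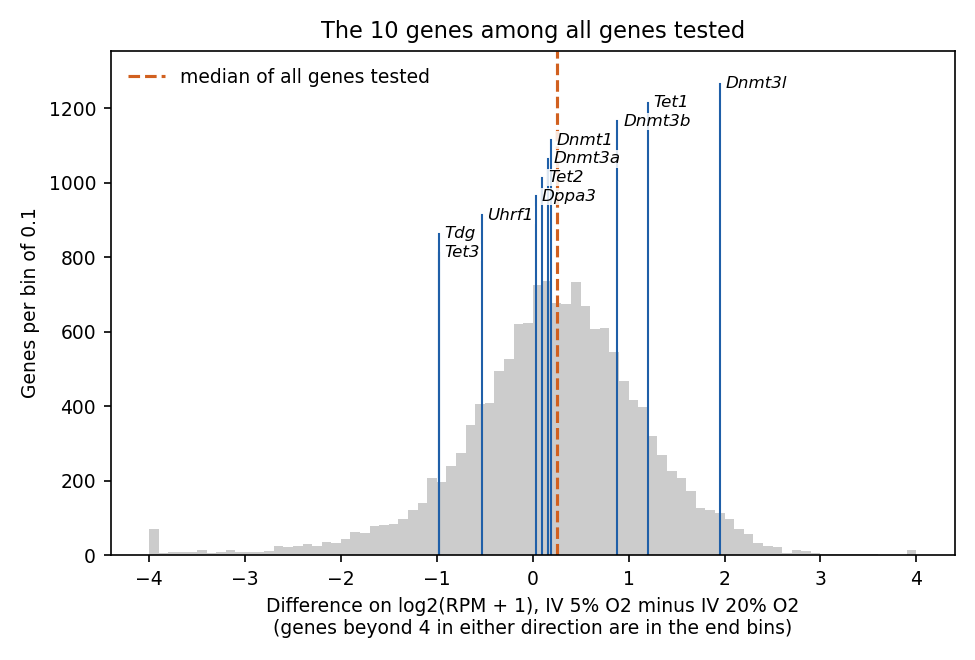
Histogram of the differences on log2(RPM + 1), 5% O2 less 20% O2, of all 14704 genes tested (grey, bins of 0.1), with a blue line at each of the 10 genes and a dashed orange line at the median of all genes. Dnmt3l at 1.95 lies in the upper tail, Tet3 and Tdg at -0.98 lie toward the lower tail, and Dnmt1, Dnmt3a, Tet2 and Dppa3 lie close to the median of 0.26.

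At a 2-fold limit on log2(RPM + 1), 2 of the 10 members were higher at 5% O2, Dnmt3l and Tet1, and 0 were lower. Of all genes tested, 18.7% were at least 2-fold higher and 9.22% at least 2-fold lower, so the members' share of 20% higher was near that of all genes. Tet3 and Tdg missed the limit narrowly on the lower side. As the median gene was itself at 0.26, the differences are also given relative to it. On that scale Dnmt3l was at 1.69, Tet1 at 0.94 and Dnmt3b at 0.62, while Uhrf1 was at -0.79 and Tet3 and Tdg were both at -1.24. Dnmt1, Dnmt3a, Tet2 and Dppa3 lay between -0.22 and -0.07. Without that subtraction, the median of the 10 members was 0.13, below the 0.26 of the median gene. Higher values made up 67.0% of the 2-fold differences of all genes as deposited, 55.8% after scaling to the reads counted on genes, 46.7% after median-ratio scaling and 49.6% after quantile normalization.

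The direction held for Dnmt3l, Dnmt3b, Tet1, Uhrf1, Tet3 and Tdg under each scaling run, and it flipped for the nearly level genes. Dnmt3l stayed at least 2-fold higher, at 1.64 after median-ratio scaling and 1.78 after quantile normalization. Tet1 came to 0.98 and 0.93 and no longer passed the limit. Tet3 came to -1.30 and -1.22 and Tdg to -1.24 and -1.20, which put both past it. Dnmt3a, Tet2 and Dppa3 turned negative under both of these scalings and after scaling to the reads on genes, and Dnmt1 turned negative with median-ratio scaling but stood at 0.47 after quantile normalization, above its 0.19 as deposited.

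**Figure D3:**
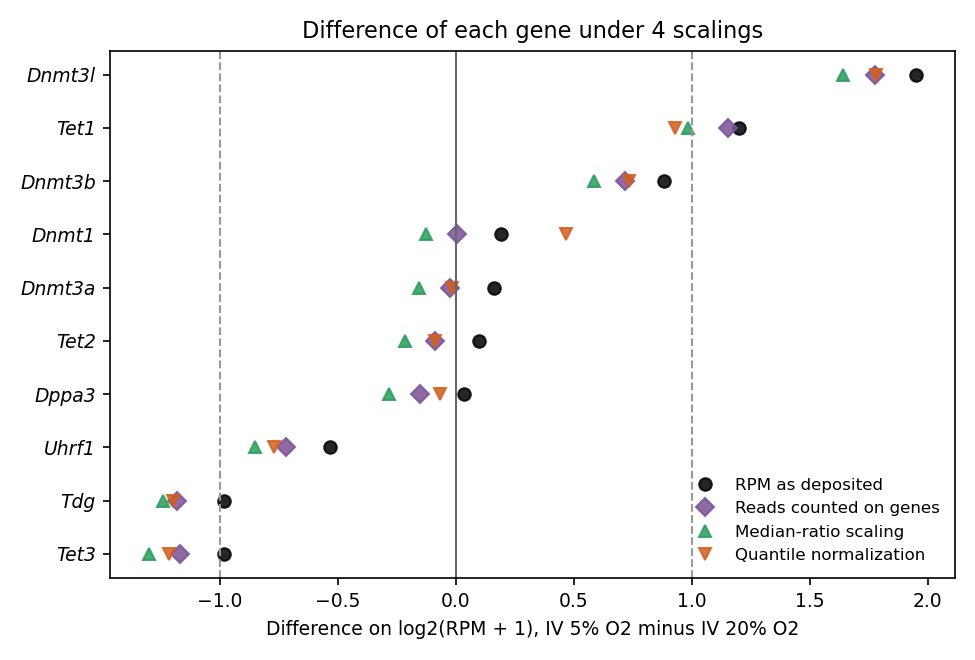
Difference of each gene on log2(RPM + 1), 5% O2 less 20% O2, with the values as deposited (black), scaled to the reads on genes (purple), after median-ratio scaling (green) and after quantile normalization (orange); dashed lines mark 2-fold. Dnmt3l stays right of the upper line under all 4 scalings, Tet3 and Tdg cross the lower line once the columns are rescaled, Dnmt3a, Tet2 and Dppa3 spread around 0, and Dnmt1 runs from -0.13 to 0.47.

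The other genes of methylation and demethylation were taken from 5 lists of 67 genes, of which 61 were in the table and 60 were tested. The lists are broad, so a gene need not have the function that names its list. Of the 60 tested, 6 were at least 2-fold higher at 5% O2 and 5 at least 2-fold lower, where all genes had 18.7% higher and 9.22% lower. Their median difference was 0.23 beside 0.26 for all genes. After median-ratio scaling 5 of the 60 were higher and 9 lower, where all 14704 genes had 1758 higher and 2003 lower. Among the genes listed as readers of methylated DNA, 1 of 7 was higher and 0 were lower, with a median of 0.09. That gene was Mbd2, which encodes a repressor bound to methylated CpG, with 13.2 RPM at 5% O2 and 3.69 RPM at 20% O2. Mbd4, a glycosylase gene, had 10.2 RPM and 18.1 RPM, and Zbtb33, the reader gene with the highest level, had 63.9 RPM and 107 RPM. Of their exonic bases, 264 of Mbd4 and 474 of Zbtb33 overlap other genes on the opposite strand. None of the 8 genes listed as partners of maintenance methylation passed 2-fold, and their median was 0.28. Usp7, which encodes a deubiquitinase that binds DNMT1 and UHRF1, had the highest level of them with 668 RPM at 5% O2 and 500 RPM at 20% O2. Uhrf2, the relative of Uhrf1, had 26.1 RPM and 16.5 RPM, a difference of 0.63 where that of Uhrf1 was -0.53, and Cdca7, a remodelling cofactor gene, had 29.8 RPM and 18.9 RPM.

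Of the 9 genes listed for the chromatin context of de novo methylation, imprint protection included, 1 was higher and 0 were lower, with a median of 0.56. Of all genes tested, 18.7% were higher and 9.22% lower. Cxxc1, whose product binds unmethylated CpG and belongs to the SET1 complex, had 85.1 RPM at 5% O2 and 26.5 RPM at 20% O2, a difference of 1.65. Kdm1a, a histone H3K4 demethylase gene, had 125 RPM and 70.2 RPM. Zfp57, which encodes the zinc finger protein that protects imprints, had the highest level of the list, 1385 RPM at 5% O2 and 784 RPM at 20% O2. Of the 19 repair and TET regulator genes, 3 were higher and 2 were lower, with a median of 0.38. Neil1 and Gadd45g, counted among these 5, passed the filter of a mean of 1 RPM only through the column where they were high, so their calls are not independent of it. Gadd45b, a stress-response gene linked to demethylation, had 21.9 RPM at 5% O2 and 3.06 RPM at 20% O2, a difference of 2.50. Neil1, a glycosylase gene of base excision repair, had 3 reads at 5% O2 and 109 reads at 20% O2, a ratio of 117 in favour of 20% O2 with an interval of 39.2 to 579. Ogt, whose product binds TET proteins, had 278 RPM and 548 RPM, a difference of -0.98.

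Of the 17 genes tested for the methyl donor and the TET cofactor, 1 was higher and 3 were lower, with a median of -0.02. All genes tested had 18.7% higher and 9.22% lower. D2hgdh, counted among the lower, likewise passed the filter only through the 20% O2 column, and 25% of its 100-base windows occur elsewhere in the genome. Idh1, which makes the 2-oxoglutarate that TET enzymes consume, had 62.9 RPM at 5% O2 and 16.7 RPM at 20% O2, a difference of 1.85. Ahcy, which clears the methylation by-product S-adenosylhomocysteine, had 15.6 RPM and 49.9 RPM, a difference of -1.61. The value of Ahcy is uncertain, since 50.8% of its 100-base windows occur elsewhere in the genome. Mat2b, a regulatory subunit gene of the enzyme that makes S-adenosylmethionine, had the highest level, 622 RPM at 5% O2 and 485 RPM at 20% O2. Counts of 2-fold differences in these lists rest on 1 column per condition, and no list was tested.

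**Figure D4:**
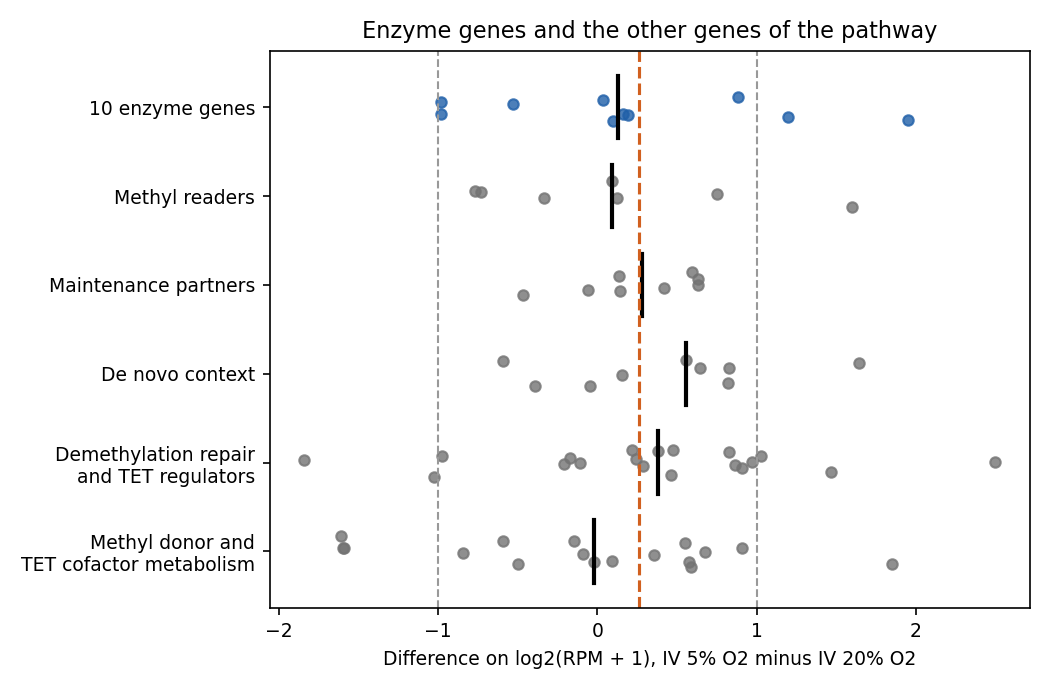
Differences on log2(RPM + 1), 5% O2 less 20% O2, of the 10 enzyme genes (blue) and of the 5 lists of other genes of the pathway (grey, 1 point per gene tested, spread vertically for legibility); black bars are medians, grey dashed lines mark 2-fold and the orange line is the median of all genes. The medians run from -0.02 for methyl donor and cofactor metabolism to 0.56 for the de novo context, and most points of each list lie inside 2-fold.

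Markers of other ovarian cells also differed between the columns. Of 15 theca and stroma markers, 10 were in the table, and all 10 had higher values at 5% O2, with a summed level of 45.3 RPM against 5.48 RPM at 20% O2. Of all genes tested, 62.6% had higher values at 5% O2. Col1a2, Vim and Dcn had no reads at 20% O2, and Cyp11a1 was the highest at 5% O2 with 16.4 RPM. Of 9 granulosa markers, 4 were in the table, with summed levels of 19.9 RPM and 11.4 RPM; Fshr had no reads at 5% O2 and Inha none at 20% O2. The 3 macrophage markers in the table summed to 17.9 and 21.1 RPM and the 3 endothelial markers to 61.0 and 36.1 RPM. Of these, 2 macrophage markers and all 3 endothelial markers had higher values at 5% O2. Lyz2 and Kdr, 1 of each kind, had no reads at 20% O2, whereas Csf1r had 9.28 RPM at 5% O2 and 15.0 RPM at 20% O2. Among the erythroid markers, 0 of 4 were in the table. The part of RNA from such cells in the values of Dnmt3l, Dnmt3b and Tet1, which were higher in the same column, was not tested. Of the oocyte markers, 3 of 11 had higher values at 5% O2, 0 were at least 2-fold higher and 3 at least 2-fold lower, with a median difference of -0.26, where all genes had 18.7% higher, 9.22% lower and a median of 0.26. Their part in the values of Tet3, Uhrf1 and Tdg, which were also lower at 5% O2, was not tested.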

How the data were processed

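RNA-seq libraries, 2 per condition, were made by the authors from ribosome-depleted total RNA of class IV oocytes by a strand-marking dUTP protocol. Reads were aligned to mm10 (GRCm38) with TopHat (TopHat2 version 2.0.9 in the submitters' processing notes) and quantitated over merged exons in SeqMonk. The deposited log2 values are given in 1 column per condition. How the libraries were joined, the treatment of reads with several matches and the use of strand in counting are not given in the sources used here. The table's name reads RPKM and the methods mention length, but 99.9% of the linear values above 0 in IV 5% O2 and over 99.9% in IV 20% O2 lay within 0.05 of a whole number of reads, so they were treated as log2 RPM. Rows at the lowest value, 0.9 of a read, were set to 0. A further value column (1 column), named for class IV oocytes grown in vivo and matching no sample analysed here, was not used, so no level is set against oocytes of the ovary.

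Of 16591 rows, 18 names occur more than once, and of these the row of highest mean was used. Genes whose mean was 1 RPM or more were tested on log2(RPM + 1), subtracting IV 20% O2 from IV 5% O2, and differences of at least 2-fold were counted. The planned limma fit needs a value per library and was not run. Ratios carry exact 95% Clopper-Pearson intervals, levels exact Poisson intervals and ratios of ratios Wald intervals. Exonic lengths are unions of GENCODE M21 exons. Windows of 50 and 100 bases, every 10 bases along the exons, were searched on both strands of the 22 chromosome sequences. The ratio intervals were tried only on simulated reads with counting error alone. That trial cannot speak for PCR copies or spread between libraries. Members, lists and alternatives were chosen with earlier results of these data known. All members were named, and from each pathway list the 2 genes with the largest absolute difference and the 1 with the highest RPM per kb, both columns summed; markers, Gadd45g, D2hgdh, Aire and Glt8d2 were named after their values were seen. Alternatives were pseudocounts of 0.1 and 5 RPM, other filters, scalings, lengths and a 1.5-fold limit. The software was scipy 1.17.1, pandas 2.3.3 and numpy 2.4.6 under Python 3.11.15, with numba 0.67.0 for the search and matplotlib 3.10.9 for plots.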

Additional observations from a re-analysis of the deposited data

How the results depend on the processing

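No paired analysis was possible because each condition has 1 pooled column that carries no replicate number; for the same reason no library could be left out. The number of members at least 2-fold higher in IV 5% O2, 2 as reported, fell to 1 (Dnmt3l) at a pseudocount of 5 RPM, among genes averaging 5 RPM or more (Tet1 was then not tested), under median-ratio scaling, after dividing by exonic length and under quantile normalization. The number at least 2-fold lower, 0 as reported, was 1 (Tdg) with a pseudocount of 0.1 RPM. It was 2 (Tet3 and Tdg) under median-ratio scaling and quantile normalization and when scaled to the reads counted on genes. At a 1.5-fold limit 3 members were higher (Dnmt3b, Dnmt3l and Tet1) and 2 were lower (Tet3 and Tdg). Of all 14704 genes tested, 5096 were higher and 2468 lower at that limit. The median of the members, 0.13, reversed to -0.19 under median-ratio scaling, -0.0416 under quantile normalization and -0.0560 with scaling to the reads on genes, an alternative chosen after seeing the data. In the order of these 3 settings, Dnmt3a reversed to -0.16, -0.0165 and -0.0252, Dppa3 to -0.28, -0.0667 and -0.15, and Tet2 to -0.22, -0.0866 and -0.0868; Dnmt1 reversed to -0.13 with median-ratio scaling. A single factor per column accounts for the reversals under median-ratio scaling and scaling to the reads on genes; the cause under quantile normalization was not tested.

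Over all 14704 genes tested, 2753 were higher and 1356 lower. Higher genes numbered 1202 with a pseudocount of 5 RPM, 1758 under median-ratio scaling, 1799 under quantile normalization and 5096 at 1.5-fold. Among the 10755 genes averaging 5 RPM or more they numbered 1691, and after division by length 1630 of 14404. Lower genes numbered 706 with a pseudocount of 5 RPM, 1625 with a pseudocount of 0.1 RPM and 2468 at 1.5-fold. After division by length 859 of 14404 were lower. Under median-ratio scaling, quantile normalization and scaling to the reads on genes, 2003, 1831 and 1771 of 14704 were lower. The members lower numbered 2 of 10 in each of these scalings. The pathway genes lower, 5 as reported, were 2 with a pseudocount of 5 RPM and 9 with median-ratio scaling. With the longest transcript as the length, 2 members changed place in the order of IV 5% O2 and 0 in that of IV 20% O2. Over the named genes and settings, 56 differences shifted within the longer side of their counting interval, 69 shifted beyond it and kept their sign, and 10 reversed; 44 more equal the reported value because their setting (a filter, or summed rows) does not touch these genes and say nothing of stability. The lower depth of IV 20% O2 limits Tet1, with 49 reads there, and Neil1 rests on 3 reads in IV 5% O2.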
